A study of Saccharomyces cerevisiae with 20 samples.

Results

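The genes described here lie wholly within 30 kb of a chromosome end in *Saccharomyces cerevisiae*. An end was taken as position 1 or as the largest gene end that the files give for that chromosome. Mitochondrial genes, genes of chromosome XI and the *COS*, *PAU*, *TIR*, *DAN*, *THI* and *HXT* families were left out. This gave 422 subtelomeric genes on 30 ends of 15 chromosomes, between 9 and 19 genes per end, of 7126 genes in all. The rule uses position and name, it was set with earlier results of these data known, and it left out 40 genes within 30 kb as family members.

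Poly(A) RNA was sequenced from 4 strains labelled as double deletions, namely *elp3 deg1* and *elp3 tcd1*, which lack *ELP3*, and *urm1 deg1* and *urm1 tcd1*, which lack *URM1*, and from WT. Each strain is haploid BY4741, and the labels list *his3*, *leu2*, *lys2*, *met15* and *ura3* for all of them, WT included. Cultures grew in minimal medium to an OD600 of 1.0. *ELP3* and *URM1* act in separate pathways that modify the wobble uridine of tRNA, *DEG1* encodes a tRNA pseudouridine synthase, and *TCD1* encodes a factor that cyclizes threonylcarbamoyl adenosine next to the anticodon. No strain labelled with a single deletion was compared here, so the effect of 1 deletion alone cannot be told apart, and *elp3 tcd1* is the name on the label of libraries that retain *TCD1* counts. The study's strain list gives a single strain for each mutant genotype, and p-values measure only the spread between these libraries.

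Chromosome ends of yeast carry few essential genes and many that are used for particular nutrients, such as maltose, siderophores, zinc, sulfonates or allantoin. Near the telomere repeats, the Sir proteins, recruited through Rap1, deacetylate histones and silence transcription. The histone deacetylase Hda1 and the repressor Tup1 act over broader regions further inward. Many genes at the ends belong to families with near-identical copies, which limits what short reads can assign.

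Each of the 20 libraries held 3273876 to 3926511 counts. Replicate 4 of the label *elp3 tcd1* had 345 *ELP3* counts and 0 *URM1* counts, and replicate 4 of the label *urm1 tcd1* had 5 *ELP3* counts and 174 *URM1* counts. Both libraries go against their labels and were left out, which leaves 4 libraries each of *elp3 deg1*, *urm1 deg1* and WT, and 3 each of *elp3 tcd1* and *urm1 tcd1*. In the others the deleted genes had at most 7 counts, except *TCD1* in *elp3 tcd1*, with 147 to 185 counts against 377 to 407 in WT. Chromosome XI, which holds none of the members, took 10.8 to 10.9% of the counts in *urm1 tcd1* and 5.07 to 5.11% in WT.

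Of the 422 subtelomeric genes, 244 (57.8%) passed the filter on low counts, against 5605 of 6704 other genes (83.6%). The 178 that did not pass include 66 without a single count in the 18 libraries and 138 in which under 80% of 58-base windows are unique in the genome. All 178 had at most 135 counts in total. Of the 244 genes tested, 199 reached the minimum in at least 3 libraries of every group, and 21 did not reach it in WT. The counts and medians below therefore describe the genes that passed and not the chromosome ends as a whole.

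Silent mating cassettes and the Y' elements are the classic silenced regions near yeast telomeres, and both were nearly unreadable here. *HMLALPHA1* and *HMRA2* had 0 counts in all 18 libraries. *HMLALPHA2* had at most 2 counts in any library. Of their 58-base windows, 0% are unique. The 8 *YRF1* genes, which encode Y' helicases, together had between 0 and 1.51 CPM in every library, and at most 2.33% of the windows of any of them are unique. *HMRA1* was the only member of the cassettes that passed, with 63.8 to 69.3 CPM in *elp3 deg1*, 87.6 to 110.4 in *urm1 deg1*, 83.4 to 101 in *elp3 tcd1* and 78.5 to 91.1 in *urm1 tcd1*, against 40.6 to 54.6 in WT. BY4741 carries **a** information at *MAT* while the reference carries alpha, so reads of *MAT***a1** also fall on this locus, and the 2 sources cannot be told apart. The **a**-specific genes moved as well, with summed CPM of 409 to 438 in *elp3 deg1*, 4198 to 4351 in *urm1 deg1*, 749.8 to 767 in *elp3 tcd1* and 1281 to 1377 in *urm1 tcd1*, against 1442 to 1482 in WT. Among alpha-specific genes, *STE3*, *MF(ALPHA)1* and *SAG1* passed the filter, and the sum over 4 such genes was 54.8 to 142 CPM over the mutants and 84.3 to 111 CPM in WT. Their part in the *HMRA1* result was not tested.

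Together the 422 genes took 2.47 to 2.51% of all counts in *elp3 deg1*, 3.18 to 3.20% in *urm1 deg1*, 2.90 to 2.92% in *elp3 tcd1* and 2.61 to 2.65% in *urm1 tcd1*, against 3.32 to 3.35% in WT. No mutant library overlapped the WT range. Without the 10 members that are most abundant in WT, the shares were 1.75 to 1.77% in *elp3 deg1*, 2.27 to 2.29% in *urm1 deg1*, 2.07 to 2.09% in *elp3 tcd1* and 1.94 to 1.99% in *urm1 tcd1*, against 2.02 to 2.03% in WT. Those 10 genes include *DLD3*, *CHA1*, *HXK2* and *ZRT1*, and without them *urm1 deg1* and *elp3 tcd1* lie above WT.

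The first comparison asked which subtelomeric genes differ between each double mutant and WT, and the 4 comparisons share the WT libraries. With TMM scaling, more of the tested members were lower than higher in each of them, whereas higher and lower calls were nearly balanced over all genes. Genes were called at an adjusted p at or under 0.01 in edgeR's quasi-likelihood test. In *elp3 deg1*, 66 of 244 members rose (27.0%, against 33.1% of all 5849 genes tested) and 109 fell (44.7%, against 33.4%). In *urm1 deg1*, 66 rose (27.0%, against 33.2%) and 92 fell (37.7%, against 33.1%). In *elp3 tcd1*, 66 rose (27.0%, against 32.1%) and 91 fell (37.3%, against 32.3%). In *urm1 tcd1*, 54 rose (22.1%, against 32.8%) and 91 fell (37.3%, against 32.2%). Upper quartile scaling changed this picture in *elp3 tcd1*, where 76 members were called higher and 76 lower, with 2215 and 1555 of all genes. It gave 76 and 88 members in *urm1 deg1*, with 2270 and 1713 of all genes, and 50 and 102 members in *urm1 tcd1*, with 1719 and 2162 of all genes, while *elp3 deg1* had 66 and 108 members, with 1991 and 1908 of all genes.

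The tested members had a median log2 fold change of -0.19 in *elp3 deg1*, -0.06 in *urm1 deg1*, -0.07 in *elp3 tcd1* and -0.17 in *urm1 tcd1*. Other genes had medians of 0.00, 0.01, 0.01 and -0.01 in the same order. With upper quartile scaling the medians of the members were 0.01 in *urm1 deg1* and 0.00 in *elp3 tcd1*. The medians of all tested genes were then 0.077 and 0.083, against 0.011 and 0.008 with TMM. The sign of the members' median in these strains thus depends on the scaling, but it lay below that of all genes with either. Per library, the median difference from the WT mean ran over -0.23 to -0.17 in *elp3 deg1*, -0.06 to -0.01 in *urm1 deg1*, -0.07 to -0.05 in *elp3 tcd1* and -0.17 to -0.14 in *urm1 tcd1*, against -0.01 to 0.02 in the WT libraries themselves.

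The sizes of the changes were also compared. Among members the median absolute log2 fold change reached 0.56 in *elp3 deg1*, 0.47 in *urm1 deg1*, 0.44 in *elp3 tcd1* and 0.52 in *urm1 tcd1*, against 0.36, 0.33, 0.32 and 0.37 among other genes. At a log2 fold change of at least 1 in either direction, 23 members rose and 43 fell in *elp3 deg1* (9.43% and 17.6%, against 7.06% and 5.73% of all genes). The corresponding counts were 28 and 40 in *urm1 deg1* (11.5% and 16.4%, against 5.93% and 6.79%) and 27 and 32 in *elp3 tcd1* (11.1% and 13.1%, against 6.74% and 3.90%). In *urm1 tcd1*, 15 rose and 46 fell (6.15% and 18.9%, against 8.00% and 5.28%). The tested members had a median level of 49.3 CPM per kb in WT, below the 64.3 CPM per kb of other tested genes, and their fold changes had a median standard error of 0.08 to 0.10 against 0.06 to 0.07. With all tested genes split into 4 classes of equal size by their level over the 18 libraries, the share of members that fell in *elp3 deg1* came to 41.6%, 45.5%, 59% and 39.6% from the lowest to the highest class, against 25.4%, 29.7%, 40.3% and 35.8% of other genes. In *urm1 deg1* the shares were 25.7%, 40.9%, 43.6% and 58.3%, against 23.5%, 26.9%, 37.2% and 43.6%. In *elp3 tcd1* they were 28.3%, 36.4%, 51.3% and 47.9%, against 16%, 22.8%, 38.0% and 50.8%. In *urm1 tcd1* they were 36.3%, 36.4%, 33.3% and 43.8%, against 28.7%, 31.0%, 37.9% and 30%. The share of falling members was thus close to that of other genes in the lowest class of *urm1 deg1*, which holds 113 of the 244 members, and in the highest class of *elp3 deg1*, and it was below it in the highest class of *elp3 tcd1* and the third of *urm1 tcd1*. Within a class, the absolute log2 fold change of members had a higher median than that of other genes in each mutant, except in the lowest class of *urm1 deg1* (0.488 among members and 0.495 among others). The part of the level in these differences was not tested.

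**Figure D1:**
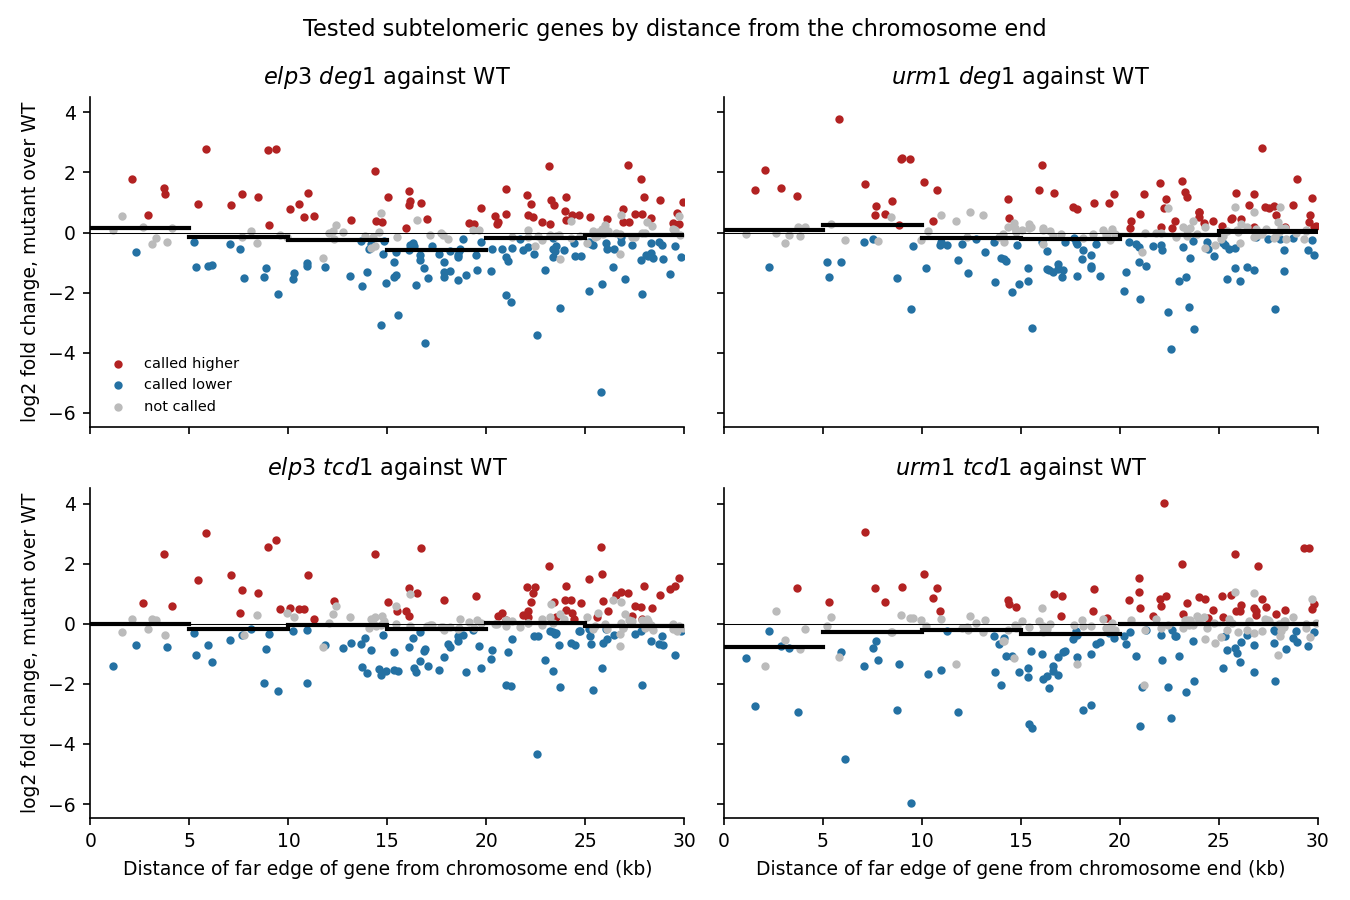
log2 fold change of each tested subtelomeric gene against the distance of its far edge from the chromosome end in kb, in the 4 mutants against WT; red points were called higher, blue points lower and grey points neither, and black lines mark the median in each 5 kb step. The lowest median outside the first step lies between 15 and 20 kb in *elp3 deg1*, at -0.57.

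Position within the 30 kb mattered first for what could be read. Between 0 and 5 kb from the end, 12 of 68 genes were tested and 31 had 0 counts, while between 25 and 30 kb 67 of 75 were tested and 1 had 0 counts. The WT level of the tested genes was 3.66 CPM per kb in the first step, 25 in the second, 44.5 in the third and between 50.1 and 61.1 in the 3 steps farthest from the end.

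Falling genes were most frequent between 15 and 20 kb in *elp3 deg1*, *urm1 deg1* and *urm1 tcd1*, and in *elp3 tcd1* between 5 and 10 kb, at 47.8% of 23 tested genes. Of the 50 genes tested between 15 and 20 kb, 32 fell and 10 rose in *elp3 deg1* (64% and 20%), 24 fell and 8 rose in *urm1 deg1* (48.0% and 16%), 23 fell and 9 rose in *elp3 tcd1* (46.0% and 18%), and 26 fell and 6 rose in *urm1 tcd1* (52.0% and 12%). Beyond 40 kb, where 5094 genes were tested, 32.9%, 33.1%, 32.0% and 33.7% fell and 33.3%, 33.3%, 32.2% and 29.8% rose in the same mutant order. The step from 30 to 40 kb, just outside the region, had 129 tested genes, of which 36.4%, 38.8%, 34.1% and 35.7% fell and 29.5%, 25.6%, 33.3% and 34.9% rose. In the first 5 kb only 12 genes were tested, which is too few for a share. There 1 fell and 4 rose in both *deg1* strains, 3 fell and 3 rose in *elp3 tcd1*, and 6 fell and 1 rose in *urm1 tcd1*. Differences between steps were not tested.

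**Figure D2:**
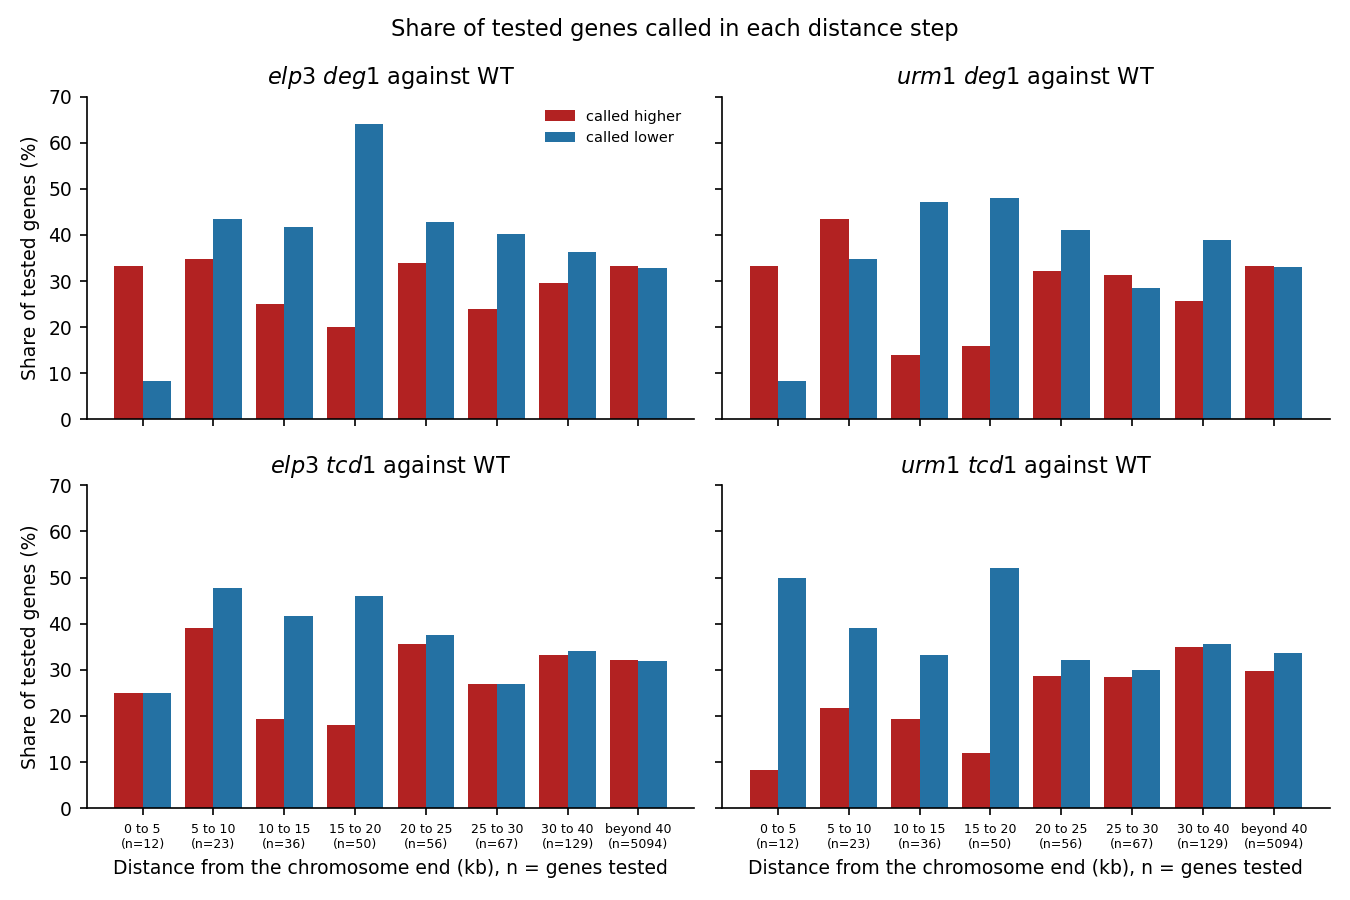
Share of tested genes called higher (red bars) or lower (blue bars) than WT in steps of distance from the chromosome end, in percent, for the 4 mutants, with the number of genes tested under each step; the last 2 steps lie outside the subtelomeric region. Blue exceeds red in every mutant in each step between 10 and 25 kb, and between 15 and 20 kb the blue bars stand at 46.0 to 64% and the red bars at 12 to 20%.

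Genes on both sides of the 30 kb limit had changes in either direction. Just inside it, *ERV29* at 29.9 kb had log2 fold changes of 1.02 and 0.23 in the *deg1* strains (*elp3* before *urm1*) and -0.15 and 0.01 in the *tcd1* strains, in the same order *YNR066C* at 29.8 kb had -0.80, -0.75, -0.23 and 0.66, and *NDI1* at 29.8 kb had -0.09, 0.17, -0.11 and -0.27. Just outside, *SDL1* had -0.07, -0.40, 0.00 and -0.32, *HSP31* at 30.3 kb had 0.02, -0.14, 1.33 and 0.35, and *ATP15* at 30.3 kb had 1.05, -0.03, 0.57 and 1.28.

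Ends differed from each other. More members fell than rose at 21 of 30 ends in *elp3 deg1*, at 15 in *urm1 deg1*, at 14 in *elp3 tcd1* and at 20 in *urm1 tcd1*, and more rose than fell at 7, 7, 9 and 5 ends. At the left end of chromosome XII, all 8 tested genes fell in *elp3 deg1*, and 4 of them fell in *urm1 deg1*, 6 in *elp3 tcd1* and 5 in *urm1 tcd1*. The right end of chromosome IX went the other way, with 7, 8, 8 and 6 of 15 tested genes rising and 4, 3, 4 and 5 falling in the same order. Over all genes 32.1 to 33.2% rose and 32.2 to 33.4% fell in the 4 mutants, and several counts at this end are near these shares. Both ends were chosen from the 30 with their values known. Genes of 1 end are neighbours and are not independent of each other.

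**Figure D3:**
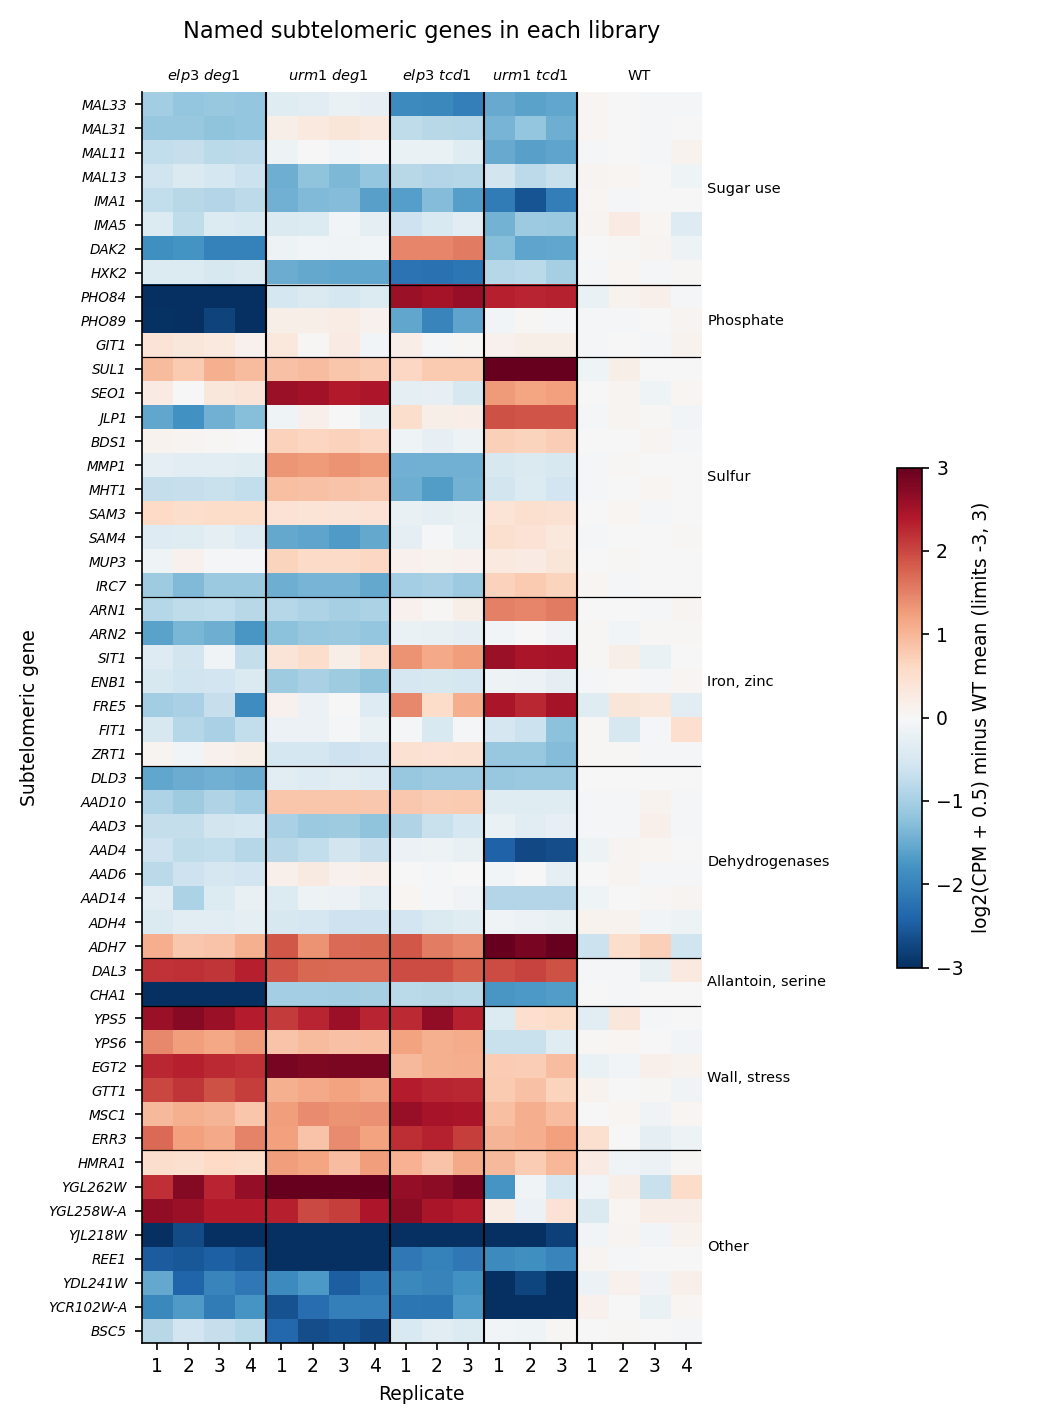
Level of 52 named subtelomeric genes (rows, grouped by function) in each of the 18 libraries (columns, grouped by strain), as log2(CPM + 0.5) minus the mean of the 4 WT libraries, with colours limited at -3 and 3. Red is above and blue below WT; *YJL218W* and *REE1* are blue in every mutant library and *DAL3* and *GTT1* are red in every one, while *PHO84* and *SUL1* separate the strains.

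The members are described next by gene lists, whose counts stand against the shares over all genes, namely 33.1% higher and 33.4% lower for *elp3 deg1*, 33.2% and 33.1% for *urm1 deg1*, 32.1% and 32.3% for *elp3 tcd1*, and 32.8% and 32.2% for *urm1 tcd1*. Most lists hold few tested genes, and counts near these shares are no result about a list. The first list holds 17 subtelomeric genes for the use of maltose, isomaltose and related sugars, of which 11 were tested: 1 rose and 9 fell in *elp3 deg1*, 2 rose and 4 fell in *urm1 deg1*, 1 rose and 9 fell in *elp3 tcd1*, and 0 rose and 9 fell in *urm1 tcd1*. The 4 that fell in *urm1 deg1* are near the share over all genes. Of the 9 falls in *elp3 tcd1*, those of *MAL11* (-0.19), *IMA2* (-0.58) and *IMA5* (-0.44) were not called with upper quartile scaling, and each also lost its call without at least 1 single library, as *IMA5* did in *elp3 deg1*. The list had median log2 fold changes of -0.81, -0.32, -0.83 and -1.47 in the same order. *MAL33*, which encodes a maltose-responsive activator, had 198, 184, 188 and 184 CPM in *elp3 deg1*, 318, 331, 356 and 346 CPM in *urm1 deg1*, 110.0, 108 and 98.6 in *elp3 tcd1*, and 145, 135 and 140.4 in *urm1 tcd1*, against 431, 416, 404 and 396 in WT. Every mutant library lay below every WT library, and the log2 fold changes were -1.12 ± 0.04 (SE), -0.32 ± 0.04, -1.97 ± 0.05 and -1.55 ± 0.05 (edgeR adjusted p 7.6e-10 or less). The maltose permease gene *MAL31*, next to it, averaged 64.3 ± 1.28 CPM in *elp3 deg1*, 176 ± 8.91 in *urm1 deg1*, 81.8 ± 3.08 in *elp3 tcd1* and 57.0 ± 6.52 in *urm1 tcd1*, against 145 ± 5.15 in WT (SD, n = 4, 4, 3, 3 and 4). It thus rose in *urm1 deg1* only slightly, at a log2 fold change of 0.25, and fell in the other mutants. *IMA1*, an isomaltase gene, fell in all 4 mutants, by 0.81, 1.47, 1.57 and 2.26 on the log2 scale. *MAL32* fell by 4.51 in *urm1 tcd1*, but only 18.8% of its windows are unique and it shares reads with *MAL12*.

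*DAK2*, *HXK2*, *REE1* and *YJL218W* are given singly, and *HXK2* is also counted among the glucose repression genes below. *DAK2*, on the sugar list, encodes a dihydroxyacetone kinase and had 16.5 to 19.5 CPM in *elp3 deg1*, 62.0 to 65.4 in *urm1 deg1*, 193 to 203 in *elp3 tcd1* and 22.7 to 28.4 in *urm1 tcd1*, against 62.2 to 73.4 in WT. *HXK2*, the hexokinase that also acts in glucose repression, had 1034, 1031, 988 and 1012 CPM in *elp3 deg1*, 491, 475, 469 and 467 CPM in *urm1 deg1*, 295, 289.7 and 305 in *elp3 tcd1*, and 765, 780.3 and 688 in *urm1 tcd1*, against 1324, 1429, 1335 and 1418 in WT. All mutant libraries lay below WT, with log2 fold changes of -0.43 ± 0.03 (SE), -1.56 ± 0.03, -2.22 ± 0.04 and -0.88 ± 0.04. *REE1*, which encodes a protein linked to the control of enolase, fell in every mutant as well. It had 78.1 to 83.6 CPM in *elp3 deg1*, 44.7 to 57.4 in *urm1 deg1*, 103 to 113 in *elp3 tcd1* and 116 to 129 in *urm1 tcd1*, against 438 to 486 in WT. Its upstream neighbour on the same strand, *YJL218W*, begins at position 21973 of chromosome X and is separated from *REE1* by 569 bp. *YJL218W* had 1.86 to 3.73 CPM in *elp3 deg1*, 1.56 to 2.46 in *urm1 deg1*, 0.760 to 1.97 in *elp3 tcd1* and 2.71 to 3.45 in *urm1 tcd1*, against 25.1 to 28.7 in WT. Its log2 fold changes were -3.41 ± 0.19 (SE), -3.87 ± 0.19, -4.34 ± 0.24 and -3.14 ± 0.21. *YJL218W* met the minimum for testing in WT, where it is highest, and was low in the mutants, so these falls are given without a rank.

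The mRNA of *PHO84* differed in direction between the strains. *PHO84* encodes the high-affinity phosphate transporter and is located on chromosome XIII at 24037 to 25800 on the minus strand. It had 3.50, 2.30, 3.11 and 2.99 CPM in *elp3 deg1*, 83.1, 88.4, 82.4 and 89.3 CPM in *urm1 deg1*, 721, 678 and 727 in *elp3 tcd1*, and 605, 585 and 593 in *urm1 tcd1*, against 103, 128, 132 and 116 in WT. No group overlapped another. The log2 fold changes were -5.30 ± 0.14 (SE) in *elp3 deg1* (edgeR adjusted p 1.1e-26), -0.50 ± 0.06 in *urm1 deg1* (1.1e-09), 2.56 ± 0.05 in *elp3 tcd1* (1.4e-48) and 2.32 ± 0.05 in *urm1 tcd1* (1e-30). *PHO89*, the gene of a sodium-coupled phosphate transporter, did not follow it. It had 5.46 to 7.77 CPM in *elp3 deg1*, 60.8 to 64.9 in *urm1 deg1*, 13.9 to 18.7 in *elp3 tcd1* and 52.8 to 57.2 in *urm1 tcd1*, against 53.7 to 59.6 in WT. It thus fell in both *elp3* strains, by 3.09 and 1.71 on the log2 scale, and did not pass the test in either *urm1* strain. Of the 4 tested genes of the phosphate list, which holds *PHO89*, *PHO11*, *PHO12* and *GIT1* but not *PHO84*, 1 rose and 1 fell in *elp3 deg1*, 0 and 0 were called in *urm1 deg1*, 0 rose and 2 fell in *elp3 tcd1*, and 0 and 0 were called in *urm1 tcd1*. *PHO11* and *PHO12* encode near-identical acid phosphatases with 13.6% and 14.6% unique windows. The fall of *PHO11* in *elp3 tcd1* and the rise of *GIT1* in *elp3 deg1*, a glycerophosphoinositol transporter gene, were each lost without single libraries, at -0.90 to -0.66 and 0.26 to 0.31.

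The sequence upstream of *PHO84* is shown because this gene fell in both *deg1* strains and rose in both *tcd1* strains. Pho4, the activator of the phosphate pathway, binds CACGTG (a palindrome, read once). The stretch from 500 to 201 bases before the coding sequence holds it at 436 and 414 bases upstream, in capitals below. Of all 5986 nuclear protein-coding genes with such a window, 4.36% hold at least 1 CACGTG there, and 29 hold at least 2. The bases come from the RefSeq genome of build R64 (chrXIII:26001-26300, minus strand).
PHO84: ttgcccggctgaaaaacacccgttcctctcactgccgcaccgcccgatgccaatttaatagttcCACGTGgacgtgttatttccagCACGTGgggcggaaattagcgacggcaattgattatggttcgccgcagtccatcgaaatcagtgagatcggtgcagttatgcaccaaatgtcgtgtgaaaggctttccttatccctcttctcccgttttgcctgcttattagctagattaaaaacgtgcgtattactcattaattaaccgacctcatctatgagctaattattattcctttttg

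Of 10 tested sulfur genes, 1 was higher and 9 were lower in the *elp3* than in the *urm1* strains (28.7% and 27.7% of all genes). These are averages over the *deg1* and the *tcd1* pair. The interaction was positive for 5 and negative for 4 of the genes (33.9% and 33.6% of all genes), so the difference was not alike in both pairs. Against WT, 3 of these genes for sulfur and methionine use rose and 5 fell in *elp3 deg1*, 7 rose and 2 fell in *urm1 deg1*, 1 rose and 7 fell in *elp3 tcd1*, and 8 rose and 2 fell in *urm1 tcd1*. Their median log2 fold changes were -0.17, 0.61, -0.22 and 0.58. In *elp3 tcd1* the falls of *BDS1* and *SEO1* each lost the call without at least 1 single library, and those of *BDS1* and *SAM4* with upper quartile scaling. *SUL1*, a sulfate permease gene, had 422, 378, 457 and 424 CPM in *elp3 deg1*, 402, 414, 389 and 373 CPM in *urm1 deg1*, 337, 380.5 and 379 in *elp3 tcd1*, and 3544, 3548 and 3668 in *urm1 tcd1*, against 202, 246, 216 and 216 in WT. All mutants were above WT, and *urm1 tcd1* stood far above the others. The log2 fold changes were 0.94 ± 0.05 (SE), 0.81 ± 0.04, 0.72 ± 0.05 and 4.03 ± 0.04. *SEO1*, which encodes a putative permease, had 43.9 to 58.3 CPM in *elp3 deg1*, 234 to 272 in *urm1 deg1*, 31.7 to 37.2 in *elp3 tcd1* and 101 to 108 in *urm1 tcd1*, against 40.4 to 47.0 in WT. It rose in both *urm1* strains, by log2 fold changes of 2.47 and 1.24, and its value of 0.26 in *elp3 deg1*, where the groups overlap, lost the call without any single WT library. *JLP1*, for a sulfonate dioxygenase, rose in *urm1 tcd1* at 1.92 ± 0.09 (SE) and fell in *elp3 deg1* at -1.56 ± 0.14.

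*MMP1* and *MHT1* act together, the first as the S-methylmethionine permease and the second as the methyltransferase that uses S-methylmethionine to make methionine. They lie head to head on chromosome XII with 342 bp between them. *MMP1* had 316 to 335 CPM in *elp3 deg1*, 995 to 1036 in *urm1 deg1*, 149 in each *elp3 tcd1* library and 290.2 to 301 in *urm1 tcd1*, against 395 to 421 in WT. *MHT1* had 89.3 to 94.8 CPM in *elp3 deg1*, 265 to 283 in *urm1 deg1*, 46.8 to 55.5 in *elp3 tcd1* and 100.4 to 112 in *urm1 tcd1*, against 143 to 156 in WT. On the log2 scale, *MMP1* changed by -0.32, 1.28, -1.46 and -0.46 in these strains and *MHT1* by -0.71, 0.84, -1.53 and -0.51, all past the test. The paired genes *SAM3* and *SAM4*, for the uptake and use of S-adenosylmethionine, did not move alike. *SAM3* averaged 1182 ± 22.8 CPM in *elp3 deg1*, 1069 ± 11.1 in *urm1 deg1*, 675 ± 21.4 in *elp3 tcd1* and 1088 ± 24.3 in *urm1 tcd1*, against 801 ± 20.5 in WT (SD, n = 4, 4, 3, 3 and 4). *SAM4* averaged 278 ± 10.9, 118 ± 5.91, 316 ± 27.9 and 474 ± 26.4 CPM in the same strains, against 357 ± 9.61 in WT.

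The bases between *MHT1* and *MMP1* are shown because both genes start there. Met31 and Met32, zinc finger proteins of the sulfur pathway, bind AAACTGTGG. On either strand it occurs in the 300 bases before the coding sequence in 0.518% of 5987 nuclear protein-coding genes, and in *MMP1*, *MHT1* and *MUP3* among the 10 genes of the list. The 1 match seen from *MMP1* (R64, chrXII:17656-17955, plus strand) is in capitals and reads on the opposite strand.
MMP1: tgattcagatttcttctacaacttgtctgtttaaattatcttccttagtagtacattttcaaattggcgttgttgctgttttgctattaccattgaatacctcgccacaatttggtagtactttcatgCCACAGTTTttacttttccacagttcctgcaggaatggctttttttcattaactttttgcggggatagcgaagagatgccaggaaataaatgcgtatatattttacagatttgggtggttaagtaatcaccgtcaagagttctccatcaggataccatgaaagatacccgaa

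Of 5 tested genes on the iron list, 0 were higher and 4 were lower in the *deg1* than in the *tcd1* strains (31.3% and 33.4% of all genes), and *SIT1* is described with them. None of the 5 rose and 5 fell in *elp3 deg1*, 0 rose and 3 fell in *urm1 deg1*, 1 rose and 2 fell in *elp3 tcd1*, and 2 rose and 2 fell in *urm1 tcd1*. *ARN1*, a siderophore transporter gene, had 58.7 to 63.7 CPM in *elp3 deg1*, 53.2 to 59.2 in *urm1 deg1*, 110.1 to 122 in *elp3 tcd1* and 296 to 316 in *urm1 tcd1*, against 105 to 113 in WT. Both *deg1* strains lay below WT and *urm1 tcd1* above it, with log2 fold changes of -0.81 ± 0.06 (SE), -0.98 ± 0.06, 0.11 ± 0.06 and 1.51 ± 0.05, of which that of *elp3 tcd1* did not pass. *SIT1*, which encodes a transporter of ferrioxamine-type siderophores, had 14.4 to 22.1 CPM in *elp3 deg1*, 27.0 to 34.8 in *urm1 deg1*, 53.3 to 61.7 in *elp3 tcd1* and 133 to 147 in *urm1 tcd1*, against 20.6 to 27.2 in WT. Its fall in *elp3 deg1* (-0.44) and its rise in *urm1 deg1* (0.36) each lost the call without either of 2 single libraries, whereas 1.26 in *elp3 tcd1* and 2.53 in *urm1 tcd1* were called in each fit. *FRE5*, for a putative ferric reductase, had 0.544 to 1.86 CPM in *elp3 deg1*, 2.41 to 3.70 in *urm1 deg1*, 5.11 to 9.87 in *elp3 tcd1* and 17.8 to 21.0 in *urm1 tcd1*, against 2.48 to 4.38 in WT, and its fall in *elp3 deg1* (-1.39 ± 0.38) was not called without replicate 4 of that strain. *ARN2* and *ENB1*, further siderophore transporter genes, did not rise in any mutant. *ARN2* had log2 fold changes of -1.55, -1.19, -0.24 and -0.06, the last not called, and *ENB1* of -0.52, -1.11, -0.51 and -0.21. *FIT1*, whose wall mannoprotein helps to retain siderophores, fell in *elp3 deg1* (-0.83) and in *urm1 tcd1* (-0.85), the second of which was not called without *urm1 tcd1* replicate 3 or WT replicate 4.

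The iron genes are shown with the TGCACCC element to which the iron-responsive activator Aft1 binds, in capitals within 60 bases (GGGTGCA where it reads on the opposite strand). It occurs on either strand in the 300 bases before the coding sequence in 1.32% of 5987 nuclear protein-coding genes. It is found there in *ARN1*, *SIT1*, *FRE5*, *ENB1* and *FIT1* (1 match is shown for each, and *ENB1* and *FIT1* have 2), and *ARN2* has none in that window. Of the genes with the element, *ARN1*, *SIT1* and *FRE5* rose and *ENB1* and *FIT1* fell in *urm1 tcd1*, and the fall of *FIT1* was not called with DESeq2. The part of Aft1 in these changes was not tested. The positions on build R64 are chrVIII:21198-21257 (minus), chrV:27443-27502 (plus), chrXV:1061308-1061367 (plus), chrXV:21415-21474 (minus) and chrIV:1505049-1505108 (minus).
ARN1: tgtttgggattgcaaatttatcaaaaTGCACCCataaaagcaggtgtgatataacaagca
SIT1: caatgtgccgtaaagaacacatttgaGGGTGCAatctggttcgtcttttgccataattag
FRE5: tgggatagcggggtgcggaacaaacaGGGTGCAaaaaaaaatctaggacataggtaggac
ENB1: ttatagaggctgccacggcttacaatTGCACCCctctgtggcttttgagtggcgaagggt
FIT1: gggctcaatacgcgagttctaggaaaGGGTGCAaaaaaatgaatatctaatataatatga

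**Figure D4:**
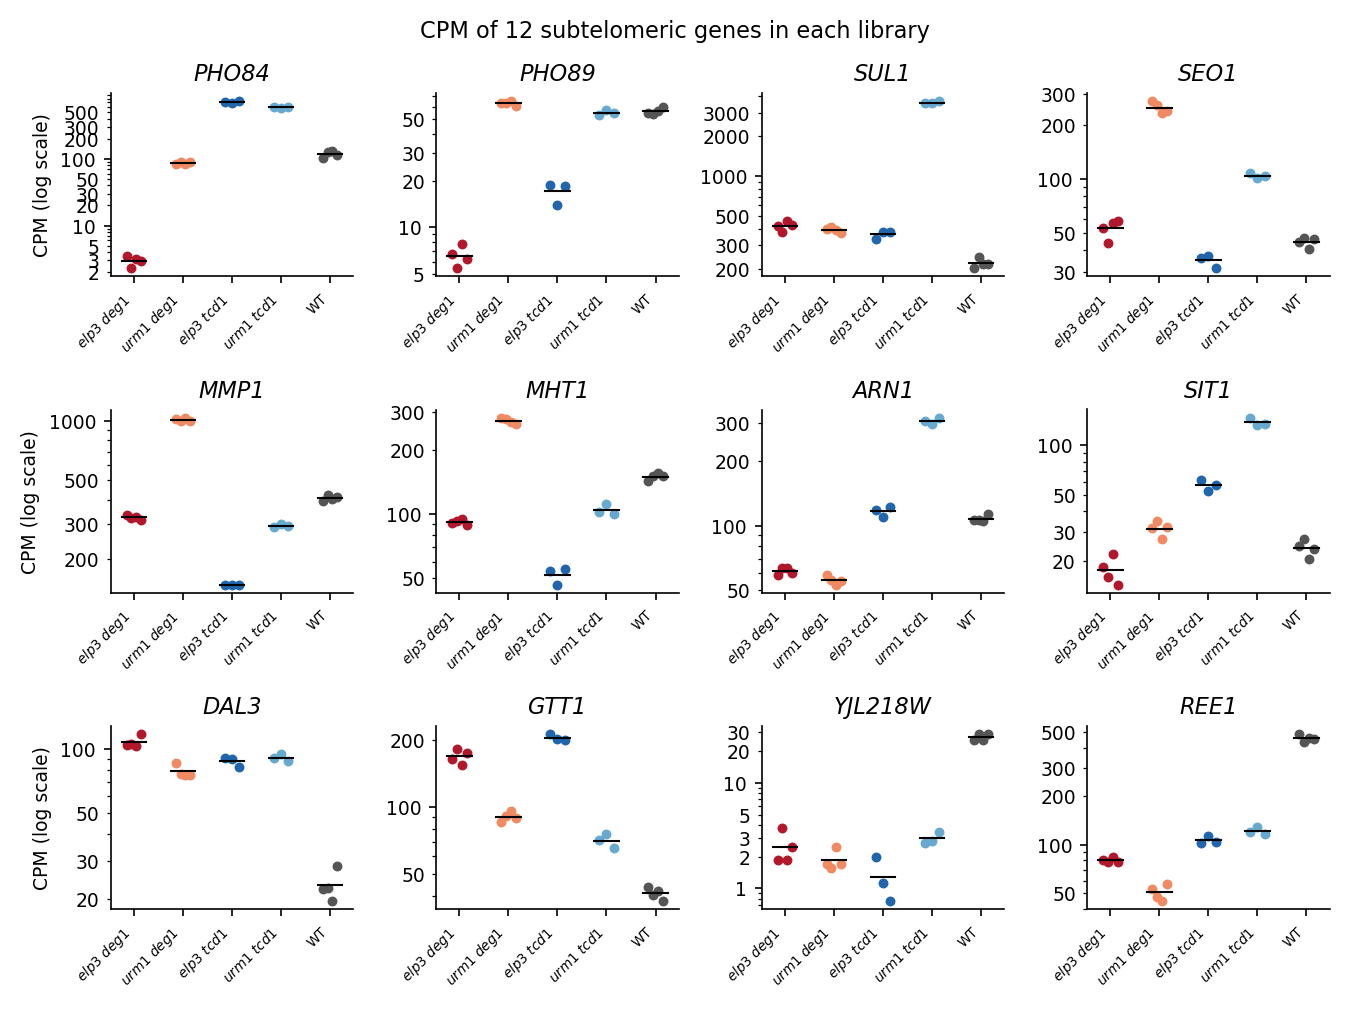
CPM (log axis) of 12 subtelomeric genes in each of the 18 libraries, with a point per library and a bar at the group mean, for the 4 mutants and WT from left to right. *PHO84* runs between 2.30 and 727 CPM with no overlap between groups, *SUL1* in *urm1 tcd1* lies at 3544 to 3668 CPM, and *MMP1* and *MHT1* have the same order of groups apart from the close levels of *elp3 deg1* and *urm1 tcd1*.

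Zinc and arsenic genes gave few common changes. Of 5 tested genes, 0 rose and 2 fell in both *deg1* strains, 2 rose and 0 fell in *elp3 tcd1*, and 1 rose and 2 fell in *urm1 tcd1*. *ZRT1*, the high-affinity zinc transporter gene, had 1281 to 1518 CPM in *elp3 deg1*, 878 to 944 in *urm1 deg1*, 1815 to 1868 in *elp3 tcd1* and 552 to 613 in *urm1 tcd1*, against 1323 to 1379 in WT. It fell in both *urm1* strains (log2 fold changes of -0.59 and -1.19), rose in *elp3 tcd1* (0.44) and was not called in *elp3 deg1* (0.08). *ARR3*, for the arsenite exporter, fell in *elp3 deg1* (-1.52) and in *urm1 tcd1* (-1.21).

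*DAL3* and *CHA1* act in the use of nitrogen compounds and are given singly. *DAL3* encodes ureidoglycolate lyase of allantoin degradation and lies at 415030 to 415617 on chromosome IX, minus strand. It had 104, 106, 103 and 117 CPM in *elp3 deg1*, 86.2, 76.4, 75.6 and 75.8 CPM in *urm1 deg1*, 91.0, 90.2 and 82.6 in *elp3 tcd1*, and 90.4, 94.8 and 88.0 in *urm1 tcd1*, against 22.1, 22.5, 19.5 and 28.4 in WT. No mutant library overlapped WT, and the log2 fold changes of 2.22 ± 0.09 (SE), 1.73 ± 0.09, 1.92 ± 0.09 and 1.98 ± 0.10 were close to each other. *CHA1*, the gene of the catabolic serine and threonine deaminase, had 155 to 171 CPM in *elp3 deg1*, 1013 to 1044 in *urm1 deg1*, 1166 to 1186 in *elp3 tcd1* and 617 to 648 in *urm1 tcd1*, against 2046 to 2108 in WT. It fell in all 4 strains, at -3.68 ± 0.04, -1.05 ± 0.03, -0.83 ± 0.03 and -1.71 ± 0.03.

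The stretch before *DAL3* is shown because the gene rose in all 4 mutants. Gln3 and Gat1, activators of nitrogen catabolite repressed genes, bind GATA elements, and GATAAG (either strand) occurs in the 300 bases before the coding sequence in 14.7% of 5987 nuclear protein-coding genes. *DAL3* has 5 matches, of which the first pair overlap and the last reads on the opposite strand as CTTATC, and only 3 of all these genes have at least 4. It is printed from chrIX:415618-415917 of R64, minus strand, with the matches in capitals.
DAL3: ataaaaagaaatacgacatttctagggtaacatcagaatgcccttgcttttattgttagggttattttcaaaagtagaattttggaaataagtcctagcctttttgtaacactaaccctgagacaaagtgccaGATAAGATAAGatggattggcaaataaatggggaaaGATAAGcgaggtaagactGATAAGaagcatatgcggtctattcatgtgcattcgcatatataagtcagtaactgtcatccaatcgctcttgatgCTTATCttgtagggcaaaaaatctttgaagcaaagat

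Of 9 tested dehydrogenase genes, 2 rose and 7 fell in *elp3 deg1*, 3 rose and 5 fell in *urm1 deg1*, 2 rose and 3 fell in *elp3 tcd1*, and 1 rose and 5 fell in *urm1 tcd1*. The 3 falls in *elp3 tcd1* and the 3 rises in *urm1 deg1* are near the shares over all genes, and the fall of *AAD14* in *urm1 deg1* (-0.29 to -0.26 without any 1 of 4 single libraries) was lost there, with DESeq2 and with upper quartile scaling. *DLD3*, the most abundant member in WT, converts 2-hydroxyglutarate and lactate. It had 1219.6 to 1308 CPM in *elp3 deg1*, 2731 to 2826 in *urm1 deg1*, 1626 to 1678 in *elp3 tcd1* and 1618 to 1642 in *urm1 tcd1*, against 3522 to 3608 in WT. It fell in each mutant, at -1.49, -0.39, -1.11 and -1.12 on the log2 scale. The aryl alcohol dehydrogenase genes did not move together. *AAD10* rose in *urm1 deg1* (0.80 ± 0.03, SE) and *elp3 tcd1* (0.78 ± 0.04) and fell in *elp3 deg1* (-0.98 ± 0.05) and *urm1 tcd1* (-0.36 ± 0.04). *AAD4* had -0.75, -0.75, -0.19 (not called) and -2.69, and *AAD3*, 2.30 kb from the end of chromosome III, had -0.63, -1.13, -0.71 and -0.25 (not called without any of 5 single libraries), both given for the 2 *deg1* and then the 2 *tcd1* strains with *elp3* before *urm1*. *ADH7*, for a cinnamyl alcohol dehydrogenase, rose in all 4, at 0.93, 1.63, 1.62 and 3.05, from a low and scattered WT level of 1.65 to 5.08 CPM, and its rise in *elp3 deg1* was not called without either of 2 *elp3 deg1* or 2 WT libraries.

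Of only 4 tested flocculin and wall protease genes, 3 rose and 0 fell in *elp3 deg1*, 2 rose and 0 fell in *urm1 deg1*, 3 rose and 1 fell in *elp3 tcd1*, and 0 rose and 2 fell in *urm1 tcd1*. The fall in *elp3 tcd1*, that of *FLO1*, was lost with DESeq2 (-0.66) and without any 1 of 3 single libraries (-0.53 to -0.50). *YPS6*, for a yapsin protease, had 100.4 to 123 CPM in *elp3 deg1*, 81.9 to 86.6 in *urm1 deg1*, 93.9 to 104 in *elp3 tcd1* and 28.1 to 34.9 in *urm1 tcd1*, against 42.1 to 46.7 in WT. On the left end of chromosome VII, *YGL262W*, *YPS5* and *YGL258W-A* rose in the same 3 strains. *YGL262W*, 5.84 kb from the end, had 7.27 to 10.9 CPM in *elp3 deg1*, 16.6 to 21.2 in *urm1 deg1*, 10.1 to 11.7 in *elp3 tcd1* and 0 to 1.07 in *urm1 tcd1*, against 0.565 to 2.01 in WT. Its log2 fold changes were 2.79 ± 0.30 (SE), 3.78 ± 0.25 and 3.03 ± 0.30, and -1.09 ± 0.72 in *urm1 tcd1*, where it was not called. *YGL262W* did not reach the minimum for testing in WT and was tested through the strains where it is high, so these rises had to appear. *YPS5* gave 2.74, 2.44, 2.56 and 0.30, and *YGL258W-A* gave 2.78, 2.45, 2.78 and 0.20. *YPS5* and *YGL258W-A* lie on 1 strand with 194 bp between them, and 66.4% of the windows of *YPS5* are unique. *EGT2*, which acts in the separation of daughter cells, rose most in the *deg1* strains, with 359.9 to 392 CPM in *elp3 deg1*, 544 to 562 in *urm1 deg1*, 153 to 165 in *elp3 tcd1* and 131 to 149 in *urm1 tcd1*, against 67.8 to 86.7 in WT. *GTT1*, a glutathione transferase gene, rose most in the *elp3* strains, at 2.05 ± 0.07 in *elp3 deg1*, 1.11 ± 0.07 in *urm1 deg1*, 2.31 ± 0.06 in *elp3 tcd1* and 0.79 ± 0.09 in *urm1 tcd1*. *MSC1* rose in all 4, at 0.98, 1.33, 2.51 and 0.98. Of 3 tested genes in the list of stress genes that holds *GTT1*, 2 rose and 0 fell in *elp3 deg1*, 1 rose and 1 fell in *urm1 deg1*, 3 rose and 0 fell in *elp3 tcd1*, and 1 rose and 0 fell in *urm1 tcd1*. The other 2, *HSP33* and *SNO4*, have 25.7% and 25.3% unique windows, and the rise of *HSP33* in *elp3 tcd1* was not called without replicate 2 of that strain (0.62).

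Of 7 tested genes of other transporters, 3 rose and 4 fell in *elp3 deg1*, 3 rose and 3 fell in *urm1 deg1*, 1 rose and 3 fell in *elp3 tcd1*, and 3 rose and 3 fell in *urm1 tcd1*. *PUG1*, for a plasma membrane protein that moves protoporphyrin and heme, had 14.6 to 19.9 CPM in *elp3 deg1*, 15.2 to 24.5 in *urm1 deg1*, 18 to 19.9 in *elp3 tcd1* and 92.3 to 95.2 in *urm1 tcd1*, against 42.1 to 53.6 in WT. It fell in the first 3 strains, by at least 1.41 on the log2 scale, and rose by 0.92 in *urm1 tcd1*. *VTH2* had 0 counts in each *elp3 deg1* and each *elp3 tcd1* library, 4 to 13 counts in *urm1 deg1* and 3 to 7 in *urm1 tcd1*, against 4 to 8 in WT. Its near-identical copy *VTH1* (1.26% unique windows for both) gave 1.04 ± 0.32 (SE) in *elp3 deg1*, a call lost without any of 4 single libraries. Reads could be assigned between these copies by few bases only. Among the remaining lists, *IMD2*, for IMP dehydrogenase, rose in *urm1 deg1* (0.59) and *urm1 tcd1* (1.19), fell in *elp3 tcd1* (-0.37) and was not called in *elp3 deg1* (-0.14). *ERR3*, an enolase-related gene with 39.9% unique windows, rose in all 4, at log2 fold changes of 1.19 to 2.31. The 3 genes of its list together had only 2.63 to 4.92 CPM in WT, against 6.12 to 19.4 in the mutants. *ERR3* could thus pass the filter through mutants where it is high, and its rises are not independent of the filter. In the vitamin list, 1 of 3 tested genes rose in *elp3 deg1* and in *elp3 tcd1*, namely *SNO3* (15% unique windows), whose call in *elp3 deg1* was lost without any of 5 single libraries, and none was called in the *urm1* strains.

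Among falls outside the lists, *YDL241W* had 2.87 to 5.65 CPM in *elp3 deg1*, 2.73 to 4.94 in *urm1 deg1*, 3.97 to 4.56 in *elp3 tcd1* and 1.04 to 2.13 in *urm1 tcd1*, against 15.2 to 19.5 in WT. *YCR102W-A* fell in all 4 strains too, at 0 to 0.345 CPM in *urm1 tcd1* against 8.19 to 10.5 in WT, and its fitted value of -5.96 there rests on 2 libraries without a count. *YIR036W-A* and *YAR047C* also fell in each mutant, at log2 fold changes of -1.57 to -3.46 and -1.89 to -2.54. *BSC5* fell chiefly in *urm1 deg1*, with 23.6 to 30.2 CPM, against 88.6 to 106 in *elp3 deg1*, 115 to 123 in *elp3 tcd1*, 143 to 160.4 in *urm1 tcd1* and 152 to 161 in WT.

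The second question was how the partner deletions differ. In one fit over the 18 libraries, 84 members were higher and 73 lower in the *deg1* strains than in the *tcd1* strains (34.4% and 29.9%, against 31.3% and 33.4% of all genes). At a log2 difference of at least 1 they numbered 18 and 16 (7.38% and 6.56%, against 2.67% and 3.64%). The rule names *PHO84*, *FRE5* and *SIT1* on the negative side, at -5.33 ± 0.05 (SE), -2.62 ± 0.20 and -1.92 ± 0.07. *FRE5* met the minimum for testing in the *tcd1* strains, where it is highest, and was low in the *deg1* strains, so it is not ranked. On the positive side the rule names *AAD15*, *YAR073W* and *YCL074W*, which lie within 3.75 kb of an end and had at most 7.06 CPM on average in any strain. They met the minimum for testing through the *deg1* strains, where they are high, so they had to differ, and they are not ranked here. In the *elp3* strains, 67 members were higher and 64 lower than in the *urm1* strains (27.5% and 26.2%, against 28.7% and 27.7%). At a log2 difference of at least 1 there were 15 and 15 (6.15% and 6.15%, against 1.78% and 1.62%). *PHO89* (-2.47 ± 0.08), *PHO84* (-2.29 ± 0.08) and *SEO1* (-1.91 ± 0.06) had the largest negative differences. The value of *PHO84* comes from the *deg1* pair, since *elp3 tcd1* lay above *urm1 tcd1*. On the positive side the rule names *YCR102W-A*, *FLO9* and *YCL074W*. *YCL074W* is again not ranked, for its low level, and *YCR102W-A* had *urm1 tcd1* libraries without a count. With all 20 libraries as labelled, each lost its call (0.68, 0.86 and 1.22).

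The difference between *elp3* and *urm1* was itself different in *deg1* and *tcd1* strains for 159 members. The interaction, coded as *elp3* minus *urm1* in *deg1* less the same in *tcd1*, was positive for 67 and negative for 92 (27.5% and 37.7%, against 33.9% and 33.6% of all genes). At an interaction of at least 1 in size, 21 were positive and 57 negative (8.61% and 23.4%, against 10.9% and 12.3%). Upper quartile scaling moved the median interaction of all genes to -0.169, against -0.020. The largest positive values were those of *SUL1* (3.39 ± 0.07, SE), *HXK2* (2.42 ± 0.06) and *IRC4* (2.40 ± 0.28). On the negative side the rule names *ECM34* (-5.63 ± 0.60), *YGL262W* (-5.16 ± 0.44) and *PHO84* (-5.09 ± 0.15). *ECM34* and *YGL262W* were under the minimum for testing in *urm1 tcd1*. They passed the filter through other strains, where they are higher, so their values are given without a rank. The *tcd1* side of the interaction includes *elp3 tcd1* libraries that retain *TCD1* counts and *urm1 tcd1* libraries with the higher chromosome XI share, and the part of either in it was not tested.

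Regulators of the chromosome ends were examined last, as genes outside the set apart from *RPD3* and *HXK2*. Of 37 genes for silencing and chromatin factors, 8 rose and 16 fell in *elp3 deg1*, 8 rose and 16 fell in *urm1 deg1*, 13 rose and 9 fell in *elp3 tcd1*, and 7 rose and 12 fell in *urm1 tcd1*. Over all genes 33.1%, 33.2%, 32.1% and 32.8% rose and 33.4%, 33.1%, 32.3% and 32.2% fell in the same order. The 13 rises in *elp3 tcd1* and the 12 falls in *urm1 tcd1* are near these shares. Counts near them, here and in the lists below, are no result about a list. *SIR2*, for the histone deacetylase of silent chromatin, had log2 fold changes of -0.25, 0.18, 0.43 and -0.28, the second not called, and *SIR3* was called only in *elp3 deg1*, at -0.24. *HDA1*, for the deacetylase of the broader domains, fell slightly in all 4 (-0.20, -0.23, -0.26 and -0.30). *SAS5*, for a subunit of the SAS acetyltransferase, and *YKU80*, for a subunit of the telomere-binding Ku complex, fell in all 4 as well, at -0.99, -1.39, -0.80 and -0.35 and at -0.81, -1.19, -0.42 and -0.76. Other subunits of these complexes did not follow. *SAS2* had -0.34, 0.19, 0.86 and 0.62, *SAS4* had 0.44, 0.28, 0.16 and -0.08, and *YKU70* was called only in *urm1 tcd1*, at -0.46. Further listed genes lay above WT, such as *ORC1* (0.21, 0.36, 0.46 and 0.28) and *HTZ1* (0.40, 0.35, 0.34 and 0.19, the last not called). Of 10 glucose repression genes, 1 rose and 6 fell, 3 rose and 6 fell, 0 rose and 7 fell, and 2 rose and 6 fell in the same order. The corepressor gene *CYC8* fell in all 4, at -0.82, -1.27, -0.75 and -0.93. The 6 **a**-specific genes all fell in both *elp3* strains and all rose in *urm1 deg1*, and in *urm1 tcd1* 3 rose and 1 fell. Of these rises in *urm1 tcd1*, that of *STE6* (0.62) is of a chromosome XI gene. The silencing genes *SIR1* (0.40) and *ABF1* (1.31), which also rose there, lie on that chromosome too, and *ABF1* rose in *elp3 tcd1* as well (1.10). The part of the higher chromosome XI share of *urm1 tcd1* in these rises was not tested. Of 10 haploid-specific genes, 2 rose and 6 fell, 9 rose and 1 fell, 2 rose and 6 fell, and 4 rose and 6 fell, and of 3 alpha-specific genes, 2 rose and 1 fell, 2 rose and 0 fell, 2 rose and 1 fell, and 0 rose and 1 fell, with the 2 *deg1* strains before the 2 *tcd1* strains and *elp3* before *urm1* in each. How far any of these mRNA levels moves with the genes at the ends was not tested.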

How the data were processed

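The authors deposited raw counts, not normalized, in 1 table for each of 20 libraries. According to the study's methods, poly(A) libraries were aligned with STAR (2.5.1b in the submitters' processing notes) to the R64-1-1 genome. The header of each deposited table names featureCounts v1.4.6-p2 with strand setting 2 and annotation release 84, whereas the methods name htseq count. Reads that fit several places, or 2 genes on 1 strand, are not counted under these settings unless asked for, which lowers counts of duplicated genes. Of 7126 genes, 6048 matched a RefSeq locus tag (R64), which gave their names, 6036 at identical coordinates.

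Groups came from the labels, with replicate 4 of both *tcd1* labels left out. The members and the gene lists were chosen with earlier results of these data known. Genes with enough counts under filterByExpr (minimum count 10, 18 libraries) were tested in R 4.3.3 with edgeR 4.0.16 and limma 3.58.1, using TMM factors, the quasi-likelihood test and Benjamini-Hochberg adjustment over all genes, at 0.01. Each mutant was fitted with WT, and *deg1* against *tcd1*, *elp3* against *urm1* and their interaction in one fit. CPM are TMM-scaled, except summed CPM of lists, which use the plain library total. Libraries held 3273876 to 3926511 counts, so 3 counts, the fewest told from none, are 0.764 to 0.916 CPM, counting error only. A gene's unique share is the share of its 58-base windows found once in the genome. Named were list members, the 5 called members with the largest rise and the 5 with the largest fall per mutant among those whose libraries do not overlap WT, the 3 largest in each direction of the other comparisons, the 3 tested genes on each side of 30 kb, and the deleted genes. *SIR1*, *SIR2*, *SIR3*, *ABF1*, *HDA1*, *HDA2*, *HDA3*, *SAS2*, *SAS4*, *SAS5*, *YKU70*, *YKU80*, *ORC1*, *HTZ1*, *TUP1*, *CYC8*, *STE3*, *STE6*, *MF(ALPHA)1* and *SAG1* were picked after values were seen. So were the motifs, the chromosome ends described singly and the genes in the plots. Replicate numbers did not pair the libraries. DESeq2 1.42.0 and other alternatives are given in the closing section. Python 3.11.15, numpy 2.4.6, pandas 2.3.3 and matplotlib 3.10.9 were used otherwise.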

Additional observations from a re-analysis of the deposited data

Results flagged for a closer look

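In each of 285 groups of 4 libraries, the gap between the most extreme library and its nearest neighbour was divided by the range of the group, and 15 (5.26%) passed Dixon's limit, where chance gives about 1 in 20. Among WT libraries, *ARN1* was highest in replicate 4 (113 CPM against 105 to 106, ratio 0.867), *ARN2* lowest in replicate 2 (181 against 196 to 197, 0.883), *AAD3* highest in replicate 3 (65.8 against 56.7 to 57.9, 0.862) and *AAD10* highest in the same library (444 against 401 to 407, 0.844). *SAM4* was lowest in WT replicate 1 (343 against 360.1 to 363, 0.845), *FLO1* highest in WT replicate 4 (16.6 against 12.1 to 12.6, 0.906), and the members' share of counts highest in WT replicate 1 (3.35% against 3.32%, 0.891). In *elp3 deg1*, *IMA5* was lowest in replicate 2 (9.77 CPM against 12.3 to 12.7, 0.835), *AQY3* highest in replicate 1 (136 against 116 to 119, 0.837) and *NDI1* highest in replicate 2 (214 against 175 to 181, 0.854). In *urm1 deg1*, *FIT1* (10.1 CPM against 8.93 to 9.10, 0.848), *YJL218W* (2.46 against 1.56 to 1.71, 0.836) and *URM1* (0.273 against 0, 1.00) were highest in replicate 3, *AAD6* highest in replicate 2 (46.0 against 41.7 to 42.1, 0.914) and *DAL3* highest in replicate 1 (86.2 against 75.6 to 76.4, 0.918).

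The difference between *elp3* and *urm1* was not the same in *deg1* and *tcd1* strains for 6 genes with the largest interactions in edgeR. They were *SUL1* (3.39 ± 0.07, SE, adjusted p 1.6e-38), *HXK2* (2.42 ± 0.06, 1.5e-35), *IRC4* (2.40 ± 0.28, 1.6e-10), *YGL262W* (-5.16 ± 0.44, 1.4e-14), *PHO84* (-5.09 ± 0.15, 2.9e-32) and *ECM34* (-5.63 ± 0.60, 1.4e-11). *ECM34* and *YGL262W* rest on at most 3 counts in each *urm1 tcd1* library, under the minimum for testing, and passed the filter through other strains.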

How the results depend on the processing

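With DESeq2 or DESeq2-type size factors every count of members stayed within 1.5 times its value and every median within the spread between libraries (1 SD), and at a threshold of 0.05 the 14 counts stayed within 1.5 times. DESeq2 called 51 higher and 78 lower in *elp3 tcd1*, where edgeR called 66 and 91. At a log2 fold change of at least 1, higher and lower calls against WT were 23 and 43 (*elp3 deg1*), 28 and 40 (*urm1 deg1*), 27 and 32 (*elp3 tcd1*), 15 and 46 (*urm1 tcd1*), 18 and 16 for *deg1* against *tcd1*, 15 and 15 for *elp3* against *urm1*, and 21 and 57 for the interaction. Within 20 kb they were 31 and 58, 27 and 50, 28 and 52, 19 and 53, 43 and 29, 40 and 31, and 25 and 50, with medians of -0.31, -0.12, -0.14 and -0.29 in the 4 mutants, and fewer genes enter by construction. Within 40 kb, where more enter, 104 rose in *elp3 deg1*, 142 fell in *urm1 deg1*, 109 rose in *elp3 tcd1*, 99 rose and 137 fell in *urm1 tcd1*, 125 were lower in *deg1*, 105 higher and 101 lower in *elp3*, and 114 interactions positive, with medians of -0.14 in *elp3 deg1*, -0.05 in *elp3 tcd1* and -0.14 in *urm1 tcd1*. With no filter on low counts the medians were -0.14, -0.01, -0.03 and -0.23, and with the left-out families kept -0.16 in *elp3 deg1*, -0.09 in *elp3 tcd1* and -0.21 in *urm1 tcd1*. Upper quartile scaling gave 0.01 in *urm1 deg1*, 0.00 in *elp3 tcd1* and -0.24 in *urm1 tcd1*. The medians of all genes moved as well, to 0.077, 0.083 and -0.081, and the median interaction over all genes was lower. One fit gave -0.03 in *urm1 deg1*. A mean of at least 10 counts, chosen after seeing the data, gave -0.08 in *elp3 tcd1*. Members of mostly unique sequence gave -0.09 in *elp3 tcd1* and -0.13 in *urm1 tcd1*, and leaving out chromosome XI gave -0.13 in *urm1 tcd1*. With all 20 libraries as labelled, calls were 27 and 47 in *elp3 tcd1* (median -0.04), 26 and 50 in *urm1 tcd1* (-0.10), 54 higher in *deg1*, 25 and 39 for *elp3* against *urm1*, and 40 and 43 for the interaction. There the sign turned for *DAK2* (0.04), *AAD10* (0.02) and *YPS6* (0.03) in *urm1 tcd1* and for *BDS1* (0.06), *SAM4* (0.01), *SEO1* (0.24) and *IMD2* (0.18) in *elp3 tcd1*. The cause of these shifts was not tested. Without single libraries, rising members ranged over 58 to 64, 61 to 65, 59 to 63 and 52 to 56, falling ones over 102 to 107, 90 to 92, 83 to 88 and 85 to 91, and medians over -0.20 to -0.18, -0.08 to -0.03, -0.10 to -0.06 and -0.19 to -0.14. The same ranges were 75 to 84 and 66 to 73 for *deg1* against *tcd1*, 62 to 70 and 61 to 67 for *elp3* against *urm1*, and 62 to 67 and 83 to 92 for the interaction. Of 294 called results of named genes, 270 kept their call in every such fit. Libraries with the same replicate number did not deviate together (mean r 0.00843, against -0.00288 for other pairs), and a replicate block left 386 of 394 named results on their side of the threshold and gave a median of -0.07 in *elp3 tcd1*. Depth limits genes near 3 counts, 0.764 to 0.916 CPM.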
